A study of Rattus norvegicus with 12 samples.

Results

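The RNA that came down with an antibody against Staufen2 was described on its own, in the 6 of 12 arrays of the study that were hybridised with Staufen2 immunoprecipitates. The other 6 arrays held immunoprecipitates made with preimmune antibody, and their values are given only as the background measured the same way. Members were chosen by their labels, not by any measured value. They are named Staufen2 0, for the array whose title carries no number, and Staufen2 1 to Staufen2 5.

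Both groups came from lysates of whole brains of Sprague-Dawley rat embryos at embryonic day 17 to 18, with no genetic change or treatment of the animals in the labels. Staufen2 particles were captured with a rabbit polyclonal antibody on protein A beads, and controls with a rabbit preimmune antibody. One tissue label reads P18 where the protocols say E17-E18, and the day of each array is not stated. The labels do not say whether arrays came from separate brains or lysates, so errors and p-values cover only the scatter among these arrays, which could be partly technical. No array of the unprecipitated lysate was analysed here, so a bright probe is one with much RNA in the precipitate, whether or not it was enriched over the lysate.

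Staufen2 is a double-stranded RNA-binding protein of vertebrate neurons that travels in ribonucleoprotein granules along dendrites. It binds structured stretches of messenger RNA, often in the 3′ untranslated region, and takes part in the transport, stability and local translation of its targets. In the embryonic brain it is also known for its uneven inheritance by dividing progenitors.

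Each array gave a raw signal and a detection p-value for 22226 probes. The median signal of probes with a detection p between 0.4 and 0.6 was taken as the background of an array, and signal minus that median is called excess signal below. Backgrounds ran from 73.8 to 86.6. On average 47.4% ± 1.25 (SD, n = 6) of probes were detected at p under 0.05, and 8544 probes were detected on all 6 arrays. Mean excess signal per probe was 371 ± 60.8 (SD, n = 6), lowest on Staufen2 1 at 262 and highest on Staufen2 5 at 433. A gene is represented by its brightest probe, which gave 21701 genes by symbol. Of 78 genes with 2 or more probes detected on all 6 arrays, 27 had their 2 brightest probes over 4-fold apart, so the order of signals between genes is an order of probes and not of RNA molecules. The top of the scale was also compressed. The median ratio of Staufen2 1 to the mean of the other arrays was 0.697 in the brightest 100 probes but 0.885 in the brightest 10.

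The labelled tissue was checked against its markers. All 17 measured neuronal markers were detected on 6 of 6 arrays, against 38.9% of all genes. The brightest was Gap43, a growth cone protein, at rank 102 of all genes, followed by Stmn2, a microtubule-destabilising stathmin, at rank 146 and Bcl11b, a transcription factor of deep-layer and striatal neurons, at rank 177. Of 13 markers of GABAergic neurons 11 were detected on all 6 arrays, and Dlx1, a forebrain interneuron transcription factor, was the brightest with a mean excess of 6910 ± 2361. Of 14 progenitor markers 12 were detected on all 6, led by Fabp7, the fatty acid-binding protein of radial glia. Of 8 astrocyte markers 5 were detected on all 6 arrays, and of 9 oligodendrocyte lineage markers 5, with 0 of either list among the 500 brightest genes. The brightest astrocyte markers were Aldoc, a glycolytic aldolase, with a mean excess of 538, and Sparcl1, a secreted matrix protein, with 347, and the brightest of the oligodendrocyte lineage was Olig1, its transcription factor, with 736. Gfap, the astrocyte intermediate filament protein, had a mean excess of 95.0, and Aqp4, the astrocyte water channel, was detected on 0 arrays. Mbp, a myelin protein, stood at 17.5 and was detected on 4 arrays.

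Markers of cells outside the neural lineage were uneven. Among 13 microglial markers 4 were detected on all 6 arrays, and the brightest, C1qb, had a mean excess of 80.6. Among 11 endothelial and mural markers 2 were detected on all 6, with the tight junction gene Cldn5 at 582. The globins were bright, with Hba-a1 at rank 79 and Hbb at rank 121, whereas the erythroid transcription factors Klf1 and Gata1 were detected on 0 arrays. Among preimmune arrays Hba-a1 reached 10238 and Hbb reached 6357.

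Ccni, Igf2 and Tuba1b were the brightest transcripts. Signal was spread over many genes. The 100 brightest probes held 18.9% ± 1.05 (SD, n = 6) of the summed excess signal, and 525 ± 35.4 probes were needed to reach 50% of it. The 30 brightest genes with an official symbol were taken, of which 29 are described. The 30 lay within the first 36 ranks, among which 6 entries had no official symbol. All 30 were detected on 6 of 6 Staufen2 arrays and on 6 of 6 preimmune arrays. The mean preimmune signal of a gene was between 0.599% and 12.8% of its Staufen2 mean, with a median of 3.17%. Preimmune arrays were dim as a whole, with a mean excess per probe of 2.61 to 51.5, against 262 to 433 on Staufen2 arrays. The 30 were also chosen for high Staufen2 signal, so lower preimmune signals were likely and are no separate support.

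**Figure D1:**
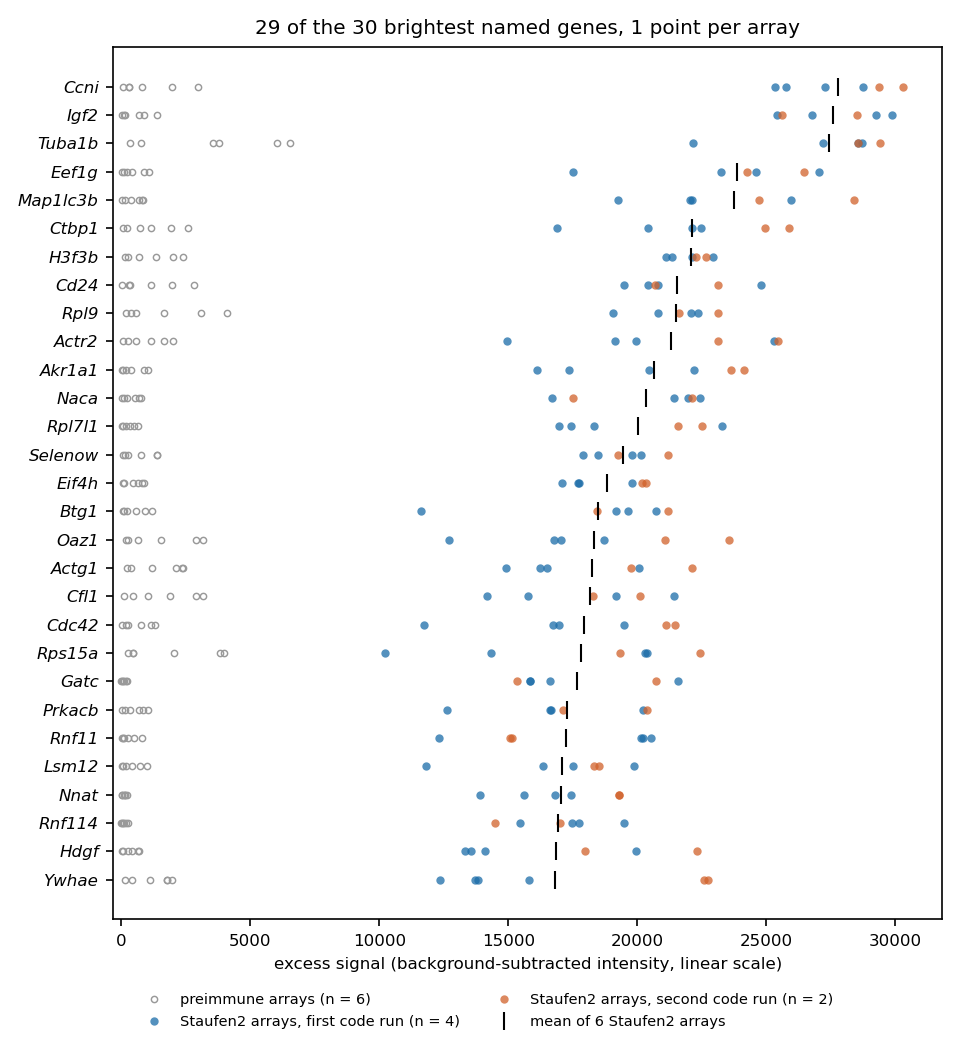
Excess signal (horizontal axis, linear scale, background-subtracted intensity) of 29 of the 30 brightest named genes (rows) on each Staufen2 array, coloured by the run of detection codes, and on each preimmune array; the vertical tick is the mean of the 6 Staufen2 arrays. Ccni, Igf2 and Tuba1b form a top set between 22150 and 30290, and the preimmune points of every gene lie below its lowest Staufen2 point. The genes were chosen for high Staufen2 signal, which made lower preimmune points likely.

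Ccni, which encodes cyclin I, a cyclin-like protein found in postmitotic cells, was the brightest gene, at 25331, 28005 and 30290 (lowest, median and highest of 6 arrays). Igf2, a fetal growth factor made by meninges, vessels and choroid plexus in the brain, followed with 25423, 27639 and 29879. Tuba1b, an alpha-tubulin, had 22150, 28547 and 29409. These 3 genes took ranks 1 to 4 on every array, and their ranges overlapped. Igf2 was the only member of the meninges and fibroblast list that was bright. The next, the collagen gene Col1a2, had a mean excess of 414.

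Genes of protein synthesis came next. Eef1g, the gamma subunit of elongation factor 1, stood at 23854 ± 3409 (mean ± SD, n = 6). Naca, the alpha subunit of the nascent polypeptide-associated complex that meets new chains at the ribosome exit, stood at 20352 ± 2561. Eif4h, a cofactor of the initiation helicase, was at 18806 ± 1458. Their order held for the means, but the range of Naca, 16683 to 22418, covered that of Eif4h, 17075 to 20352. The ribosomal protein genes Rpl9 and Rps15a stood at 21503 ± 1433 and 17831 ± 4609. Rps15a varied the most of these, from 10204 to 22426. Rpl7l1, a relative of the ribosomal protein gene Rpl7, was at 20006 ± 2768. Gatc, a subunit of the mitochondrial glutamyl-tRNA amidotransferase, had 17659 ± 2754 and the smallest preimmune share of the 30, at 0.599%.

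Genes of the actin cytoskeleton formed a further set. Actr2, a subunit of the Arp2/3 complex that nucleates actin branches, had 14956, 21531 and 25460 (lowest, median, highest). Actg1, cytoplasmic gamma-actin, had 14924, 18113 and 22115. Cfl1, the filament-severing cofilin, had 14189, 18735 and 21429, and Cdc42, a small GTPase that acts on actin in filopodia, had 11750, 18235 and 21463. The ranges of all 4 genes overlapped. Their preimmune maxima, between 1322 and 3154, stayed under the lowest Staufen2 array of each, as the choice by Staufen2 signal made likely.

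Genes of protein modification and turnover included Map1lc3b (23748 ± 3266), the conjugated marker of autophagosomes, the RING-finger genes Rnf11 (17237 ± 3508) and Rnf114 (16940 ± 1767), and Oaz1 (18305 ± 3768), the antizyme that sends ornithine decarboxylase to the proteasome. Signalling was represented by Prkacb (17260 ± 2848), one of the catalytic chains of cyclic AMP-dependent kinase, and Ywhae (16829 ± 4640), a 14-3-3 adaptor. Nuclear proteins were H3f3b (22071 ± 714), which encodes the replication-independent histone H3.3, Ctbp1 (22119 ± 3237), a transcriptional corepressor, Btg1 (18465 ± 3500), an antiproliferative cofactor, and Hdgf (16862 ± 3791), a chromatin-binding growth factor. Lsm12, an Lsm-domain RNA-binding protein, stood at 17062 ± 2817. The remaining 4 were Cd24 (21545 ± 1994), a surface glycoprotein of young neurons, Akr1a1 (20649 ± 3314), an aldehyde reductase, Selenow (19453 ± 1180), a selenoprotein, and Nnat (17052 ± 2099), an imprinted gene of the developing brain. H3f3b was the most even of the 30, with a coefficient of variation of 3.24%, and Ywhae the least even, with 27.6%.

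Gene families were then compared by how many of their measured members fell among the 500 brightest genes, where 2.30% of all genes lie. The families were drawn up with earlier results of these data known, and no test was made of them. Cytosolic ribosomal protein genes had 26 of 115, led by Rpl9, Rpl7l1 and Rps15a, while 23 of 115 were detected on 0 arrays, and held 4.15% ± 0.55 of the summed excess signal. Translation factors had 13 of 49 and held 2.23% ± 0.16. Mitochondrial ribosomal protein genes had 0 of 61 among the 500, although 55 of 61 were detected on all 6 arrays, against 82 of 115 for the cytosolic ones. Their brightest members, Mrpl4 and Mrps18b, lay at ranks 560 and 619.

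Actin and its regulators had 13 of 35 members among the 500, with Evl, an actin-elongating Ena/VASP protein, and Gap43 beside those named. Tubulins had 3 of 12, where Tubb2a (10254 ± 3051) and Tubb2b (6520 ± 1484), the beta-tubulins of growing neurons, followed Tuba1b. Microtubule-associated proteins and stathmins had 6 of 23, among them Crmp1, a collapsin response mediator, at 12608 ± 3840, and Stmn2. Motors had 2 of 28, both of the dynein machinery: Dync1li2, a light intermediate chain, at 9747 ± 1400, and the dynactin subunit Dctn2 at 5461 ± 2356. No kinesin of the list was among the 500.

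Signal transduction families were represented by few, bright members. Of 7 genes for 14-3-3 adaptors 4 were among the 500, with Ywhae, Ywhab and Ywhaq at ranks 36, 47 and 83. Calmodulins and calcium-binding proteins had 7 of 26, among them the calmodulin genes Calm2 at 16166 ± 3530 and Calm3 at 10079 ± 1260. Heterotrimeric G proteins and their regulators had 5 of 35, with Gnb1, a beta subunit, at rank 41 and Rgs2, a GTPase-activating protein, at rank 55. Phosphatases had 6 of 27, led by Ppp1cb, a catalytic subunit of protein phosphatase 1, at rank 63. Kinases had 3 of 36, where Map2k4, a stress-activated kinase kinase, followed Prkacb at rank 475. Glutamate and GABA receptors had 0 of 36 and 18 of 36 detected on all 6 arrays. Their brightest member was Glra2, a glycine receptor subunit, at rank 514.

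Membrane traffic and energy supply filled further ranks. Vesicle coats and lysosomal genes had 13 of 55, led by the small GTPase Arf5, and the vacuolar proton pump 6 of 23, led by Atp6v1e1. The respiratory chain and ATP synthase had 10 of 79, with Atp5f1a, the alpha subunit of ATP synthase, at rank 125. Ubiquitin-like modifiers and their enzymes had 10 of 45, and histones and HMG proteins 7 of 25. RNA-binding and splicing proteins had 11 of 84, led by Khdrbs1, which encodes Sam68, and Rbm8a, which encodes the exon junction complex protein Y14. Chaperones had 3 of 42, glycolysis 1 of 15, proteasome subunits 2 of 38 and Rab GTPases 2 of 49. In cholesterol synthesis 2 of 24 were among the 500, Scd2, a fatty acid desaturase, at rank 44 and Hmgcs1, the hydroxymethylglutaryl-CoA synthase, at rank 66.

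**Figure D2:**
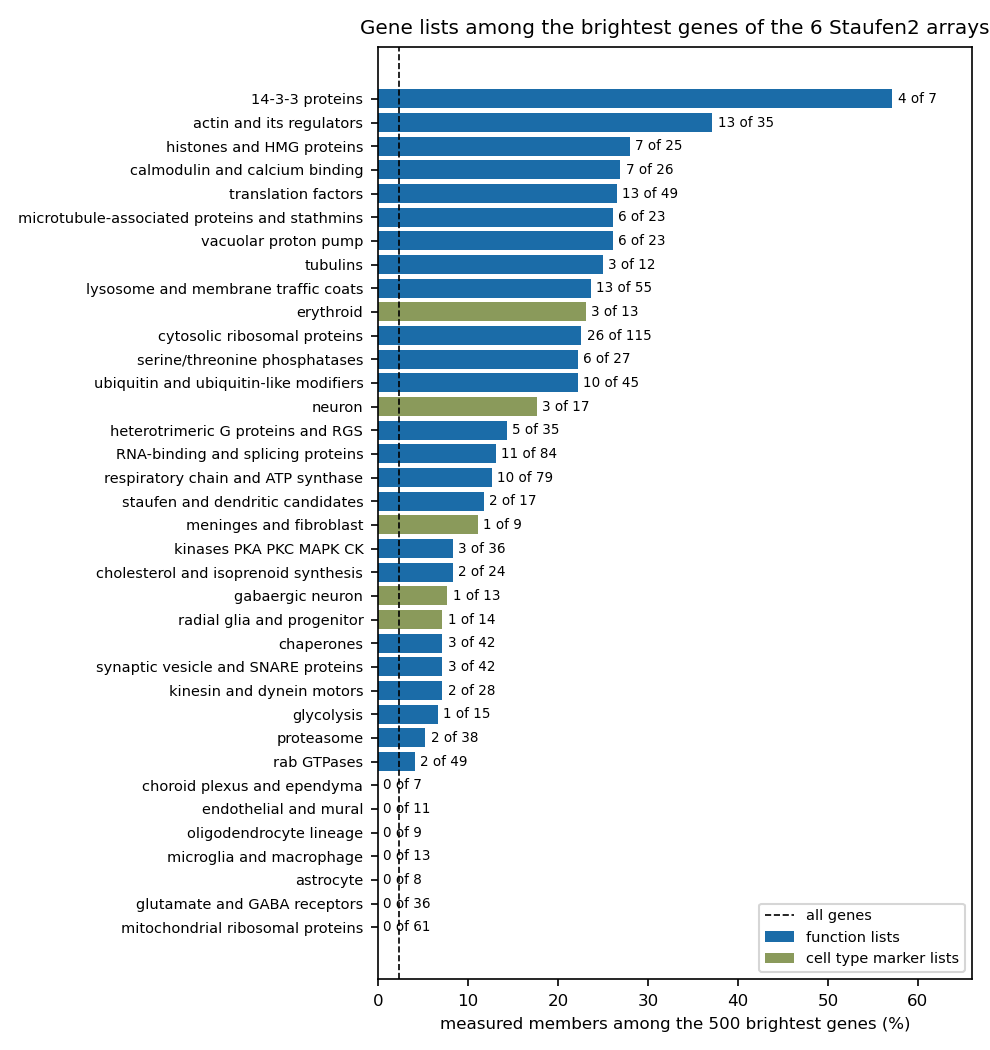
Percentage of the measured members of each gene list (rows) that were among the 500 brightest genes, with counts beside the bars; the dashed line is the share of all genes, 2.30%. 14-3-3 proteins at 57.1% and actin regulators at 37.1% are the highest, and mitochondrial ribosomal proteins and neurotransmitter receptors are at 0.

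Transcripts that earlier work tied to Staufen or to dendrites spanned the whole range of signal. Calm3 was the brightest, at 12116, 9988, 8871 and 8646 on Staufen2 0 to 3 and 10312 and 10542 on Staufen2 4 and 5. Its signals on Staufen2 4 and 5 lay within those of the other arrays. Rgs4, a regulator of G protein signalling, had 1699, 3100 and 5368 (lowest, median, highest), against preimmune values of 3 to 35. Limk1, the kinase that inactivates cofilin, stood at 2774 ± 552, and Map1b, a microtubule-associated protein of growing axons, at 3142 ± 1652. Stau1, the paralog of Staufen2, was at 1918 ± 836 and Stau2 itself at 575 ± 180. Fmr1, the fragile X gene, stood at 256 ± 102. Bdnf, a neurotrophin, Shank1, a postsynaptic scaffold, and Arc, an activity-regulated gene, had means between 56.6 and 57.5, near background though detected on 6 of 6 arrays. Camk2a, the alpha subunit of the dendritic calcium/calmodulin kinase, was detected on 4 arrays and Bcl2l1, an apoptosis regulator, on 1.

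The arrays were then compared with each other. After normexp background correction and quantile normalization, the distance between a pair was the SD of log2 differences over the 8544 probes detected on all 6 arrays. Staufen2 2 and Staufen2 3 were closest, at 0.13, and 0.0234% of probes differed over 2-fold between them. Staufen2 0 and Staufen2 1 followed at 0.29. Whether the first pair shared a lysate or a library was not tested, and results with that pair averaged are given below. Of the 100 brightest genes, 53 were common to all 6 arrays and 161 occurred on at least 1. Pairs shared between 68 and 93 of the 100.

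**Figure D3:**
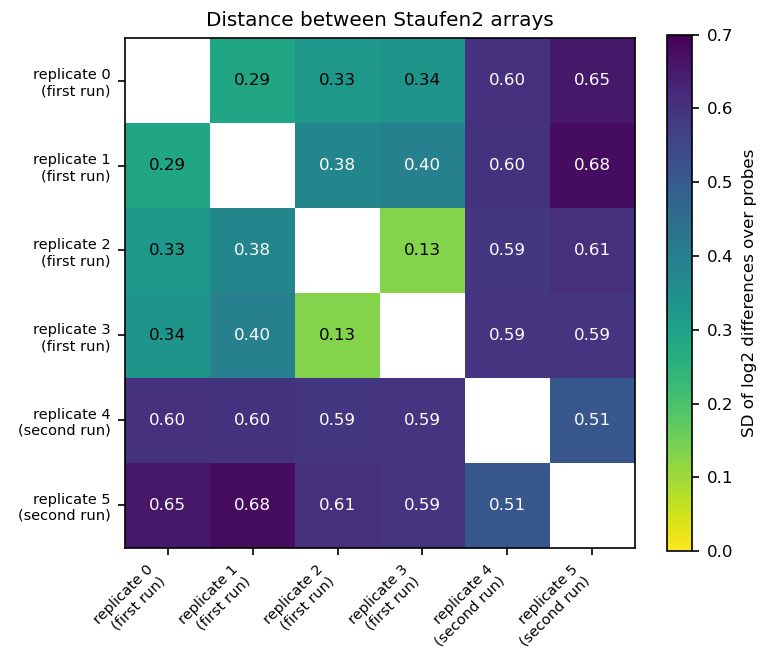
Distance between each pair of Staufen2 arrays, as the SD of log2 differences over 8544 probes (colour and number), with replicates named by number and run. The 4 arrays of the first run are 0.13 to 0.40 apart, the pair of the second run 0.51, and pairs across runs 0.59 to 0.68.

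Codes above the columns of detection p-values fall into separate series, LDS165 to LDS172 and LDS182 to LDS185. Staufen2 0, 1, 2 and 3 carry codes of the first series and Staufen2 4 and 5 of the second, and both series hold preimmune arrays. What a code stands for is not stated, and the word run is used here for a series of codes. The mean distance was 0.34 within runs and 0.61 between runs, and this split gave the largest gap of the 15 possible splits into 4 and 2 (exact permutation test, one-sided, p = 0.0667, the smallest it can give). The first principal component held 56.6% of the variance and separated Staufen2 4 and 5 from the rest. For measures of a whole array, 4 arrays against 2 cannot give a two-sided p below 0.133, so no difference of any size could pass. Mean excess was 346 in the first run and 419 in the second (exact permutation test, p = 0.133), and the share of probes detected was 47.6% and 47.1% (p = 0.8).

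The runs were then compared gene by gene. Of 10571 genes tested with limma, 546 were higher (5.17%) and 607 lower (5.74%) in the second run at a Benjamini-Hochberg adjusted p under 0.05, so that 10.9% were called. The number of calls changed with the arrays of the first run that entered the fit. Without Staufen2 0, 113 probes were higher and 213 lower. With Staufen2 2 and 3 averaged 114 probes were higher and 244 lower. With both close pairs averaged limma called 0, where 2063 probes were at an unadjusted p under 0.05. Averaging also leaves fewer arrays in the fit, so the closeness of arrays and their number cannot be told apart here. Scaling also moved the balance. Higher probes made up 47.2% of the calls, 69.2% with median centring and 82.1% without scaling, where the median of all probes was itself 0.22 higher in the second run.

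The 10 largest increases in the second run were taken among called genes whose runs did not overlap. Of all tested genes, 39.0% had runs that did not overlap. Among the 10 were 8 genes of cell division. Rrm2, the ribonucleotide reductase subunit made in S phase, had excess signals of 1155, 351, 788 and 1048 in the first run and 6726 and 3556 in the second. Staufen2 4 was the highest. The log2 difference was 2.44 ± 0.37 (SE; limma, adjusted p = 0.0109). Mcm2, a subunit of the replicative helicase, had 372, 222, 282 and 252, then 2359 and 947, a difference of 2.19 ± 0.39 (adjusted p = 0.0153). Cdk1, the mitotic kinase, had 383, 264, 264 and 297, then 2334 and 896, a difference of 2.04 ± 0.40 (adjusted p = 0.0215). In both genes Staufen2 4 was over 2-fold brighter than Staufen2 5. Cks2, a CDK-binding protein, had 3999 on Staufen2 4, 829 on Staufen2 5 and at most 406 in the first run, so that its difference of 2.23 ± 0.57 (adjusted p = 0.0423) was 0.94 without Staufen2 4 and 3.55 without Staufen2 5. Cks2 was not called when any 1 array of the first run was left out. Kif22, a chromosome-arm kinesin, Cdca8, of the chromosomal passenger complex, Spc25, of the kinetochore, and Tpx2, a spindle assembly factor, differed by 2.19, 2.02, 1.94 and 1.83, and each was highest on Staufen2 4.

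The other 2 of the 10 bind RNA. Hnrnpa2b1, an RNA-binding protein of splicing and dendritic RNA transport, had 438, 102, 693 and 888 in the first run and 2286 and 3096 in the second, a difference of 2.40 ± 0.57 (limma, adjusted p = 0.0342). Ptbp1, the splicing repressor of neural progenitors, had 1647, 892, 1107 and 1138, then 10521 and 3537, a difference of 2.11 ± 0.40 (adjusted p = 0.0204). Within the second run, Hnrnpa2b1 was higher on Staufen2 5 and Ptbp1 on Staufen2 4.

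A wider list of cell cycle and DNA replication genes, added after these differences were seen, had 29 of 62 tested members higher and 0 lower. Among all genes tested, 5.17% were higher and 5.74% lower. The median difference of the list was 0.66 against 0.01 for all genes. The list holds genes named above, such as Rrm2, so its counts are no separate support. The rise was unequal between the arrays of the second run. The members' median deviation from their mean over 6 arrays was 0.79 on Staufen2 4 and 0.13 on Staufen2 5, against -0.30 to -0.14 in the first run. Together they held 0.321% to 0.360% of the summed excess signal in the first run, 0.533% on Staufen2 5 and 1.08% on Staufen2 4. Without Staufen2 4 the median was 0.36 with 23 higher, and without Staufen2 5 it was 1.00 with 50 higher. Of all probes, 8.04% and 6.49% were higher in these 2 settings. Leaving out an array of the first run lowered the count to between 6 and 17, where 0.709% to 3.39% of all probes were higher. With the close pairs averaged the count was 0, as it was for all probes. The median was positive under each of these settings.

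Progenitor markers were drawn up apart from the cell cycle list. As planned they also name genes of dividing cells, so they were not made to be free of cell cycle genes. Of 14 tested, Sox2, the neural stem cell transcription factor, was called higher (1.15; limma, adjusted p = 0.0409), 13 were not called and 0 were lower, with a median of 0.30. That share is near the 5.17% of all genes. Their median deviation was 0.44 on Staufen2 4 and -0.05 on Staufen2 5. They held 0.159% to 0.180% of the signal in the first run, 0.235% on Staufen2 4 and 0.202% on Staufen2 5. Without Staufen2 5, 8 of them were called higher, and without Staufen2 4 the median was 0.07 with 0 higher and 1 lower. Without any 1 array of the first run 0 were called. All 14 were detected on at least 1 array. Their part in the cell cycle result was not tested. In these bulk precipitates, the number of cells of a type, the RNA per cell, and the capture or carry-over of RNA cannot be told apart.

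Embryonic globins were highest on Staufen2 4. Hbe1, the embryonic epsilon globin, had 4202, 2232, 4385 and 4761 in the first run, 11831 on Staufen2 4 and 692 on Staufen2 5. Hbz, the embryonic zeta globin, had an excess of 287 on Staufen2 4 and at most 19 on the others. Hba-a1, an alpha globin, moved otherwise, at 14608, 12316, 15581 and 16268 in the first run and 7274 and 6045 in the second, a difference of -1.39 (limma, adjusted p = 0.0037). Hbb, a beta globin, had 12173, 10123, 14213 and 15832, then 2467 and 4814, a difference of -2.22 (adjusted p = 0.00503). Neither overlapped between runs, whereas Hbe1 in the first run lay between both arrays of the second. The highest preimmune signals of Hba-a1 and Hbb, given above, exceeded both arrays of the second run. The 13 erythroid markers together held 0.348% to 0.449% of the signal in the first run and 0.122% to 0.244% in the second. The erythroid transcription factor Gata1 and the membrane protein Ermap were detected on 0 arrays, as was Klf1.

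RNA-binding and splicing proteins had 21 of 78 members higher and 2 lower, where 5.17% of all genes were higher and 5.74% lower. Their median was 0.35, against 0.01 for all genes. Beside Hnrnpa2b1 and Ptbp1 these included Hnrnpd (1.52), Sfpq (1.39) and Tardbp (1.33), nuclear RNA-binding proteins also found in transport granules. Tardbp had 1232, 673, 1040 and 1422 in the first run and 3196 and 3154 in the second, without overlap and with little difference within the second. The 2 lower members were Purb (-1.09), a single-strand nucleic acid-binding protein of dendritic granules, and Cpeb4 (-0.82), a cytoplasmic polyadenylation factor. Leaving out 1 array left between 9 and 25 higher, and averaging the close pairs 0.

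Proteasome genes had 7 of 31 higher and 1 lower, where 5.17% of all genes were higher and 5.74% lower. Their median was 0.59, and 29 of 31 differences were positive, against 5582 of 10571 for all genes. The higher members included the ATPase subunits Psmc5 (1.34), Psmc4 (1.05) and Psmc1 (0.88), and the lower one was Psmb10 (-1.02), a subunit of the immunoproteasome. Glycolytic genes had 4 of 15 higher and 0 lower, with a median of 0.49, among them Pgk1 (1.38), phosphoglycerate kinase, and Ldha (1.26), lactate dehydrogenase. The counts fell to 0 without Staufen2 2 in both lists, and in glycolysis also without Staufen2 0 or Staufen2 3. Chaperones had 9 of 39 higher and 2 lower, and 3 to 10 higher with 1 array left out. Those higher were cytosolic or mitochondrial, such as Stip1 (1.35), an Hsp70-Hsp90 cochaperone, and Cct6a (1.18), a chaperonin subunit. The 2 lower were Hsp90b1 (-1.28) and Hspa5 (-1.13), the chaperones of the endoplasmic reticulum, neither of which was called without Staufen2 0, 2, 3 or 5. Histones and HMG proteins had 5 of 24 higher and 0 lower, led by Hmgb2 (1.59), a chromatin protein of dividing cells, and 0 were called without any 1 array of the first run.

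**Figure D4:**
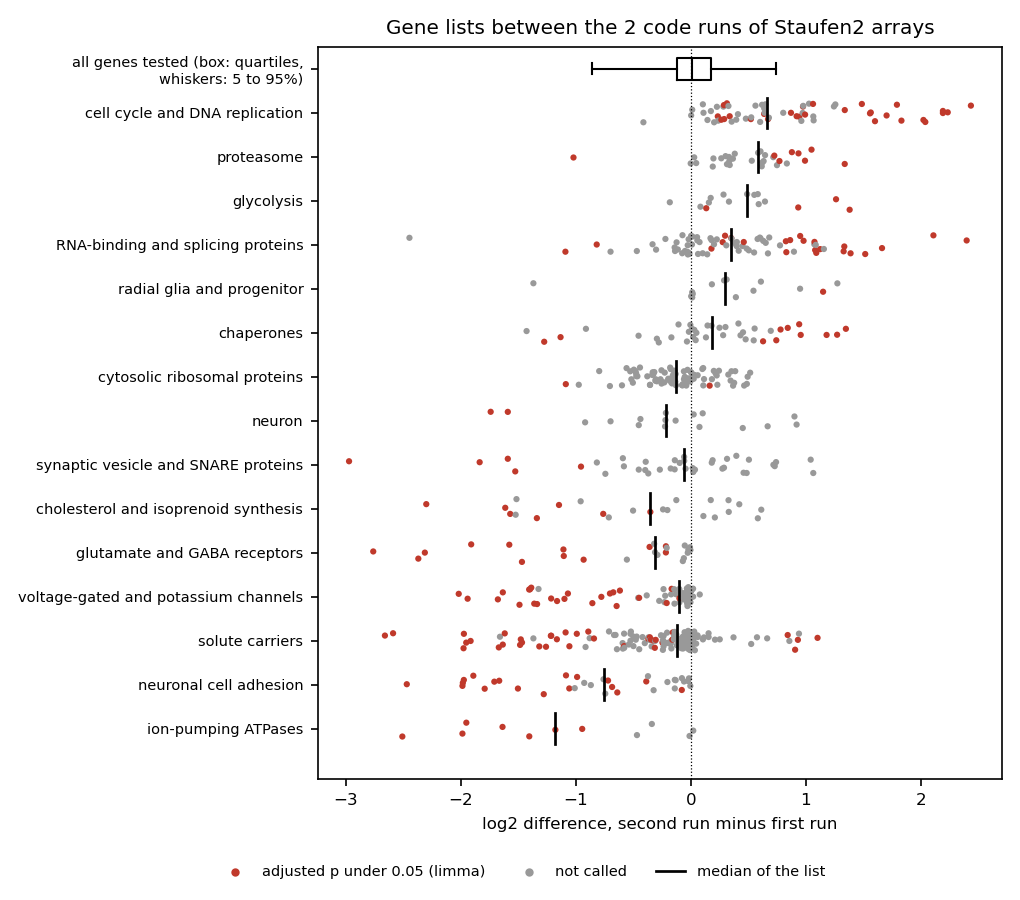
Log2 difference between runs (second minus first) of each tested member of 15 gene lists, with members called by limma at an adjusted p under 0.05 in red, the list median as a black line, and the box for all genes at the top. Cell cycle, proteasome and glycolysis members lie mostly to the right, and ion pumps, adhesion molecules and receptors to the left.

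The genes lowest in the second run, relative to the first, served membranes and secretion. They were also taken among called genes whose runs did not overlap. Cyb561, a transmembrane electron carrier of secretory vesicles, had excess signals of 2899, 1923, 1835 and 1959 in the first run and 381 and 462 in the second. Both arrays of the second run lay far below the first and close to each other. The log2 difference was -2.88 ± 0.22 (SE; limma, adjusted p = 0.00282). Slc12a5, the potassium-chloride cotransporter KCC2 of neurons, had 2413, 1729, 1827 and 1751, then 411 and 460, a difference of -2.66 ± 0.20 (adjusted p = 0.00282). Atp2b3, a plasma membrane calcium pump, had 1554, 699, 1260 and 1429, then 263 and 321, a difference of -2.51 ± 0.21 (adjusted p = 0.00325). Lsamp, a limbic adhesion molecule, had 3398, 1848, 1879 and 1999, then 576 and 554 (-2.47 ± 0.23). In these 4 genes the second run varied little.

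Gabrb1 and Gabbr2, subunits of the ionotropic and metabotropic GABA receptors, differed by -2.76 ± 0.25 and -2.37 ± 0.30. Cx3cl1, the membrane-anchored chemokine fractalkine, differed by -2.46 ± 0.32, and Slc7a5, an amino acid transporter, by -2.59 ± 0.46, the latter with 651 on Staufen2 4 and 225 on Staufen2 5. Ttr, the secreted thyroxine carrier of the choroid plexus, had 1208, 1074, 1174 and 1171, then 306 and 164, and reached 1018 on a preimmune array. Sv2b, a synaptic vesicle glycoprotein, had the largest size, -2.97 ± 0.52 (limma, adjusted p = 0.0152), with 4673, 1960, 8357 and 9549, then 623 and 1303. Its preimmune signal reached 7458, above the second run and above 2 of the 4 arrays of the first.

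**Figure D5:**
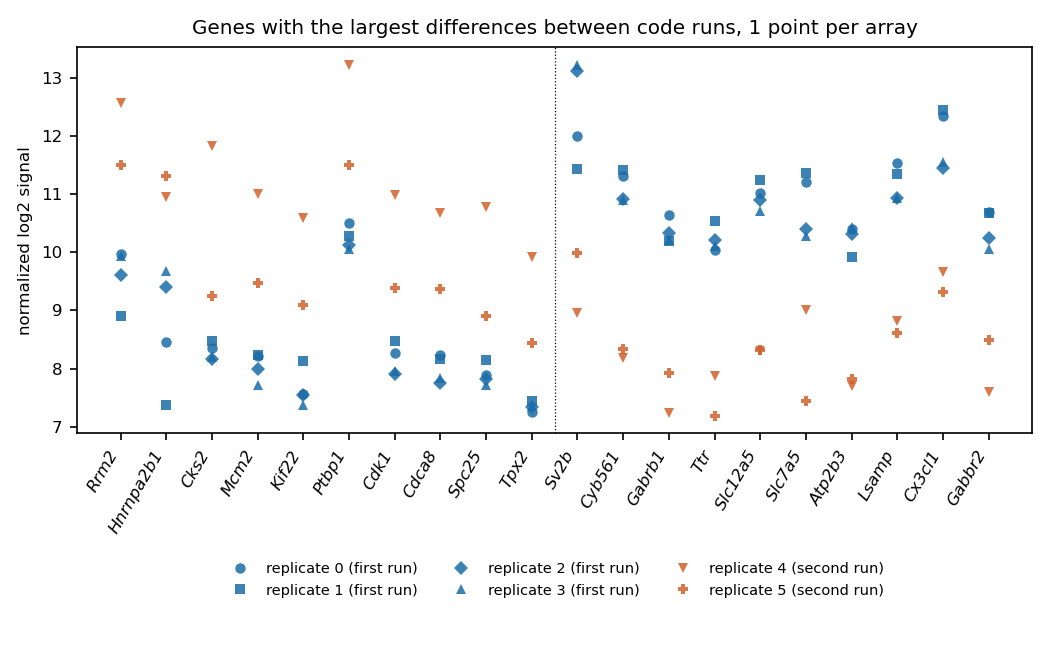
Normalized log2 signal (vertical axis) on each Staufen2 array of the 10 genes with the largest increase and the 10 with the largest decrease in the second run, marked by replicate and run. The 20 genes were chosen among called genes whose runs do not overlap. Staufen2 4 lies above Staufen2 5 in 9 of the 10 genes at left.

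Neurotransmitter receptors had 0 of 24 members higher and 12 lower, where 5.74% of all genes were lower. Their median was -0.32, and all 24 differences were negative, against 4989 of 10571 for all genes. Beside the GABA receptors, Grin1 (-2.31), the obligatory NMDA receptor subunit, and Gria2 (-1.91), the AMPA receptor subunit that bars calcium, were among them. Gria2 had 2440, 1315, 1706 and 1875 in the first run and 655 and 667 in the second, without overlap. Together the 36 measured receptors held 0.159% to 0.190% of the signal in the first run and 0.0511% to 0.0771% in the second. Leaving out 1 array left between 4 and 12 lower, and without scaling 6 were lower and 10 of the 24 differences were positive.

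Further lists were added after the differences were seen, and they hold genes named above, such as Atp2b3 and Lsamp. Their counts come from the same values and are no separate support. Among all genes tested, 5.74% were lower and 5.17% higher. Ion-pumping ATPases had 7 of 11 lower and 0 higher, with a median of -1.18, among them Atp1b1 (-1.95), the beta subunit of the sodium pump, and Atp2a2 (-1.41), the calcium pump of the endoplasmic reticulum. Neuronal adhesion molecules had 18 of 34 lower and 0 higher, with a median of -0.75, among them Ncam1 (-1.89), Nrp1 (-1.99), a semaphorin coreceptor, and the protocadherins Pcdh17 (-1.79) and Pcdh19 (-1.71). Voltage-gated and potassium channels had 24 of 69 lower and 0 higher, and solute carriers 32 of 161 lower and 4 higher. The last 2 medians, -0.10 and -0.12, were 0.11 and 0.12 without scaling, where all genes had 0.22. Pumps and adhesion molecules stayed below 0 without scaling, at -0.82 and -0.47. With 1 array left out, the lower members numbered 5 to 7 pumps, 10 to 16 adhesion molecules, 9 to 23 channels and 15 to 34 solute carriers, and with the close pairs averaged 0 in each of these lists.

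Cholesterol synthesis genes had 7 of 23 lower and 0 higher, where 5.74% of all genes were lower and 5.17% higher. The lower ones included Sc5d (-2.30), a late sterol desaturase, and Scd2 (-1.15), while 8 of the 23 differences were positive. Without Staufen2 4, 11 were lower and 1 higher, and 2 to 4 were lower without any other 1 array. With the close pairs averaged 0 were called. Synaptic vesicle and SNARE genes had 5 of 38 lower, where 5.74% of all genes were lower. Among them were Syp (-1.53), synaptophysin, and Syt1 (-1.59), the calcium sensor of release, and 9 members were higher without Staufen2 4. Neuronal markers as a list had 2 of 17 lower, Map2 and Syt1, and 0 higher, too few to set against that share. Their median of -0.22 was 0.04, with 2 higher, without Staufen2 4 and 0.07 without scaling. They held 0.496% to 0.601% of the signal in the first run, 0.398% on Staufen2 4 and 0.565% on Staufen2 5. Endothelial markers held 0.0123% to 0.0137% in the first run and 0.00267% to 0.00434% in the second, led by Cldn5 (-1.98). Cytosolic ribosomal proteins had 1 of 89 higher and 1 lower.

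Of the 16 tested members of the Staufen and dendritic list, 4 were called, where 10.9% of all genes were. The list also counts Gapdh, which was not called. Ntrk2, the TrkB receptor of Bdnf, had 3118, 1740, 2834 and 2895 in the first run and 555 and 1057 in the second, a difference of -2.20 ± 0.25 (limma, adjusted p = 0.00435). Map2, which stabilises microtubules in dendrites, had 1292, 462, 666 and 660, then 294 and 293, a difference of -1.74 ± 0.28 (adjusted p = 0.0128). Actb, cytoplasmic beta-actin and a carrier of a localising zipcode, was higher, with 9335, 5089, 4847 and 5140, then 11954 and 14364, a difference of 0.91 ± 0.23 (adjusted p = 0.0385) that was called in 7 of 16 alternative settings. On the normalized scale these 3, Bdnf and the uncalled Shank1 did not overlap between runs. The same held for 39.0% of all tested genes. Bdnf was called at -0.16 ± 0.04 (adjusted p = 0.0382) on signals of 28 to 76 above background, and in 4 of 16 alternative settings. Calm3 (-0.18), Rgs4 (-0.70), Map1b (0.67), Stau1 (0.58) and Stau2 (-0.33) did not pass the test.

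The spread of each transcript over the arrays was then measured. Over 7431 named genes detected on all 6 arrays, the median SD of normalized log2 values was 0.24, or 0.14 within the first run, and 95 genes had an SD over 1. The most variable genes were sought among the 3716 of these whose mean excess was at or above the median, 262. Of the 100 most variable there, 81 had runs that did not overlap, and 5 of the 10 most variable were called between runs. Of all tested genes, dim ones included, 39.0% did not overlap. An SD over 6 arrays already contains the gap between runs, so the 81 are no test of the runs. Ddx6, Rps9-ps14 and Spock2 were among those not called. Ddx6, the decapping-associated helicase of P-bodies and neuronal granules, was the most variable of the 3716. It had 20757, 12893, 2317, 2414, 2498 and 899 on Staufen2 0 to 5. Staufen2 0 and 1 were high and the other 4 low. A second Ddx6 probe was dim and did not follow it, with normalized log2 values of 8.46, 7.07, 8.88, 8.93, 7.84 and 7.58. Rps9-ps14, annotated by its symbol as a ribosomal pseudogene, had 1504 and 1378 on Staufen2 0 and 1, 199 and 178 on Staufen2 2 and 3, and 730 and 727 on the second run. Spock2, a brain proteoglycan, was highest on Staufen2 2 and 3, at 4652 and 3952, against 373 to 1744 on the others. Sv2b, Cyb561, Slc7a5, Hnrnpa2b1, Hbe1 and Gabrb1, described above, were also among the 10 most variable genes.

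For the cell cycle list, of which 29 of 62 tested members were called, the 150 bases before the annotated start sites were read from RefSeq promoters of the rat build GRCr8, and 50 of the 62 tested genes had an entry. The windows were searched on both strands for CCAAT, the NF-Y box, for TTTGAA, the core of the cell cycle homology region, and for TTTNNCGC, the core of E2F sites, with overlapping matches kept. The 5 members with the largest run difference that had an entry are shown 5′ to 3′ in the direction of transcription, with every match in capitals. They are Cks2 at chr17:13727520-13727669 (minus strand), Mcm2 at chr4:122918095-122918244 (minus strand), Kif22 at chr1:191080879-191081028 (minus strand), Cdk1 at chr20:19265143-19265292 (plus strand), Cdca8 at chr5:142483200-142483349 (minus strand).
Cks2: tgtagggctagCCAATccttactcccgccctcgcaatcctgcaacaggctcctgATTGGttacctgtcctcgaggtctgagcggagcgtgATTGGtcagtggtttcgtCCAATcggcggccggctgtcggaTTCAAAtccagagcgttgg
Mcm2: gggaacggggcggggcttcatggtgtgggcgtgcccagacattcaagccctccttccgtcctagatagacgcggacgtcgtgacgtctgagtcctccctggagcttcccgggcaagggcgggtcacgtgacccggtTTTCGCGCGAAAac
Kif22: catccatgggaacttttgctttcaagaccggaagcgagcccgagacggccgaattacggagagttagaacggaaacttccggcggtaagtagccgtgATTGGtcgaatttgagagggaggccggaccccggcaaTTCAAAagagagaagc
Cdk1: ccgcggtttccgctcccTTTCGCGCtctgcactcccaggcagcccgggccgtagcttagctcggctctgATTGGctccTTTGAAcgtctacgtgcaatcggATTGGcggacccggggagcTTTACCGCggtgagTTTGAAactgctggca
Cdca8: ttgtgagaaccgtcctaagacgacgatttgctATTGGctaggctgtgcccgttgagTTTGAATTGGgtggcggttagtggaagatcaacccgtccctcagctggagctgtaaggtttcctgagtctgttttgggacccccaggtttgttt

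Cdk1 held all of these motifs, 2 of each. Cks2 held 4 CCAAT matches and 1 TTTGAA match, Mcm2 only the E2F core, with 2 overlapping matches on opposite strands, and Cdca8 2 CCAAT matches and 1 TTTGAA match, of which 1 pair overlaps. Kif22 held 1 match each to CCAAT and TTTGAA. Over the list, 28 of 50 windows (56.0%) held CCAAT, against 23.7% of 27457 promoters. TTTGAA was in 14 (28.0%, against 9.12%) and TTTNNCGC in 9 (18.0%, against 2.86%). These matches describe the letters of the windows, and the list was made of genes known to be driven in the cell cycle.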

How the data were processed

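Illumina rat BeadChips were hybridised with amplified, biotinylated RNA of 6 Staufen2 and 6 preimmune immunoprecipitates. For 22226 probes the authors deposited the raw intensity of each array, with its detection p-value, and a value table that equals the log2 of that raw signal within 0.0001 for all probes. The submitters' processing notes name RMA. Versions and scanner settings are not given in these sources. The bead standard errors (12 columns) were left out. Detection p-values, whose headings the labels do not contain, were taken from the column beside each signal. Sorted by signal, 205 to 268 of 22225 neighbouring probes were out of order in that column, and at least 6730 in any other array's.

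The deposited intensity was used as raw signal minus the array's background for the composition. Probes were named through the current symbol (8086), gene number (5355) or 1 older symbol (3401) of RefSeq. The remaining probes kept the file's name or had none. For comparisons between arrays, limma 3.58.1 in R 4.3.3 was used: normexp correction from detection p-values with an offset of 16, log2, quantile normalization over the 6 arrays, probes detected at p under 0.05 on at least 3 arrays, and eBayes with trend, with Benjamini-Hochberg adjustment over all 10709 probes. For the run comparison, on simulated data with 12760 probes, the fit called 88% of probes changed by 2 log2 units upward and 80% changed by 2 downward. It called 38% and 28% of those changed by 1, and 10 of 12560 unchanged ones. Changes were planted only in probes detected on all 6 arrays above a signal threshold, with independent noise on each array. The close pairs of the first run were not simulated, so these shares do not give the rates for the real arrays. Single array values were compared by exact permutation tests in Python 3.11.15. The number of arrays limits the precision.

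Named genes are the 30 brightest with an official symbol, and the 10 called genes with the largest difference between runs in each direction without overlap. The 10 with the largest SD were added, among genes detected on all arrays with mean excess at or above the median. The 3 brightest of each list and all measured transcripts of the Staufen and dendritic list complete them. Some genes that these rules select are not reported here. Other members of a list were named after their values were seen. Members and lists were chosen with earlier results of these data known, and 5 of the 41 lists were added after the run differences were seen. Alternatives were the background, the weight of arrays, the probe rule, scaling, offset, filter, array weights and leaving out each array.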

Additional observations from a re-analysis of the deposited data

Results flagged for a closer look

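Of 77 values of genes and arrays tested, 5, all of genes, had 1 array standing apart from the other 5 on the normalized log2 scale, by a gap to the nearest array that exceeded Dixon's critical value for 6. Chance alone flags about 1 group in 20. Cks2, a CDK-binding cell cycle protein, stood at 11.8 on Staufen2 4 against 8.17 to 9.25 on the others, a gap of 0.704 of the range. Stau2, the transcript of the precipitated protein, was lowest on the same array, at 8.23 against 8.91 to 9.31 (0.631). Naca was lowest on Staufen2 5, at 13.9 against 14.3 to 14.5 (0.659), and Camk2a highest there, at 6.79 against 6.68 to 6.72 (0.68), near background. Eif4h was highest on Staufen2 1, at 14.3 against 14.1 to 14.2 (0.635).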

How the results depend on the processing

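The composition moved little. Between 26 and 30 of the 30 brightest genes were kept under the alternative backgrounds, weightings, probe rules, runs and left-out arrays, and the 100 brightest probes held 18.5% to 19.4% of the signal. The run difference moved more. Probes called higher numbered 546, and 343 without a detection filter, 114 with replicates 2 and 3 averaged, 0 with the closest pairs averaged (both chosen after seeing the data), and 74 to 839 with 1 array left out. Probes called lower numbered 612, and 170 without scaling, 202 with median centring, 394 with array weights, 244 and 0 with those averages, and 187 to 679 with 1 array left out. Of the 20 genes named for a run difference, all 20 kept their sign in each of 16 alternatives. They were chosen for large differences on the same arrays, so a change of sign was unlikely and the kept sign is no separate support. The number called was 0 with the closest pairs averaged and between 11 and 20 in the others. The cause of the run difference was not tested.

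The difference in percent of probes detected was -0.44 at p under 0.05 and 0.579 at p under 0.01. Median SD was 0.14 within the first run, where 4 of the 10 most variable genes stayed, against 4 to 9 with 1 array left out. Reversed without scaling were Calm3 (0.088), Limk1 (0.083), Stau2 (0.072), Bdnf (0.042), Shank1 (0.091) and Arc (0.17). With 1 array left out, Gapdh ran from -0.024 to 0.59 and Stau2 from -0.85 to 0.18, both turning without Staufen2 4. Hbe1 ran from -3.005 to 1.45 and Camk2a from -0.0090 to 0.092, turning without Staufen2 5.

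No paired analysis was possible because the runs hold different Staufen2 arrays and share no replicate number. The comparison with bead standard errors was not run. The brightest signals are compressed, and differences near background are understated.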
